A study of Mus musculus with 6 samples.

Results

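Col1a1, Col1a2, Col3a1, Sparc and Fn1 are genes of the extracellular matrix that fibroblasts are known for, and their reads were followed here in mouse embryonic fibroblasts (mEF) and mouse embryonic stem cells (mES). The records counted for them are alignments, each 1 placement of 1 read, whose 5′ end lies in the mm9 window of a gene, padded by 1 kb on either side, on the strand of that gene. In all, 8569 of 1209744 records belonged to the 5 genes, of which 7670 came from mEF and 899 from mES. The study labeled single cells in drops with 1 of 1152 barcodes that prime cDNA synthesis at the poly(A) tail, so that reads come from the 3′ ends of transcripts. The mES cells were of the line V6.5, and the mEF were a purchased stock (GSC-6002), derived at 10.5 p.c. according to the labels. Both were grown in Knockout DMEM with 15% serum, and mES also received LIF and BME. The labels give no treatment, and they place both cell types in each of the 6 libraries. The authors pooled the reads of all cells of a type, so there was 1 mES aggregate and 1 mEF aggregate, with no labelled replicate and no test between them. The study knew the type of a cell apart from its transcriptome and compared clusters of transcriptomes with it, but the sources used here do not say how the deposited aggregates were put together. Transfer of transcripts between drops, which the study describes, can add reads of one cell type to the aggregate of the other, and its part in the mES values was not tested.

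Type I collagen, the main fibre of skin, bone and tendon, is a triple helix of 2 chains encoded by Col1a1 and 1 encoded by Col1a2. Type III collagen, made of the Col3a1 chain, is laid down with it in soft tissues. Fibronectin, encoded by Fn1, is a secreted glycoprotein that cells bind through integrins, and collagen fibres assemble on its network. Sparc, also called osteonectin, is a secreted glycoprotein that binds collagen and regulates its deposition. Fibrillar collagens are markers of mesenchymal cells such as fibroblasts, whereas fibronectin is made by many cell types.

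The windows were checked against the gene models first, by reads that cross an intron. The alignments are on mm9 and the annotation used here (GENCODE M21) is on GRCm38, so only lengths were compared and no coordinate was carried over. Of the records of the 5 genes, 142 (1.66%) held a gap, 97 of the 7670 in mEF and 45 of the 899 in mES. Of all records, 5.60% did in mEF and 4.92% in mES. The share of the 5 genes was thus below that of the aggregate in mEF and near it in mES. These gaps had 6 different lengths, and each of the 6 equalled the length of an intron in the transcript, the first in GENCODE's naming, of the gene in whose window it lay. Such a match is not unique by itself, since between 26 and 192 genes of the 55536 in the annotation have an intron of the same length. In Sparc, gaps of 187 nt and 2598 nt equalled the introns 9 and 8 of the 9 in its transcript. The exon junctions carried by the most records are shown here as the transcript has them, with the upstream exon in lower case and the downstream exon in capitals.
Col1a2, exons 51 and 52, gap of 810 nt: gtcgatggctgctccAAAAAGACAAATGAA
Fn1, exons 30 and 31, gap of 662 nt: tcaattataaaacagAAATTGACAAGCCGT
Sparc, exons 9 and 10, gap of 187 nt: ttggcatcaaggagcAGGACATCAACAAGG
Sparc, exons 8 and 9, gap of 2598 nt: gcaccctattgatggGTACCTGTCCCACAC
The Col1a2 junction was crossed by 43 mEF and 26 mES records, the Fn1 junction by 34 mEF records and no mES record. In Sparc, the junction of exons 9 and 10 was crossed by 19 mES records only and that of exons 8 and 9 by 17 mEF records only, each at 1 position. All 4 junctions lie in coding sequence. Col1a1 and Col3a1 had 2 and 1 gapped records, all in mEF.

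In mm9, the 5′ ends of the Col1a1 records lay in chr11:94812463-94814320 and those of Sparc in chr11:55208051-55230905. Those of Col1a2 lay in chr6:4488001-4491476, those of Col3a1 in chr1:45384673-45406259 and those of Fn1 in chr1:71632140-71684826. The 3 collagen genes were read on the plus strand, Sparc and Fn1 on the minus strand. No record lay in the padding of a window. No record lay on the opposite strand either, 0 against 8569, which allows a share of up to 0.0350%. All records of the 5 genes had the highest mapping score, which the aligner gives to reads it places at 1 site, while 77.8% of the records of the mEF aggregate had it and 77.9% of those of mES.

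All 5 genes had more records per 1000000 records of the aggregate (CPM) in mEF than in mES. Each exceeded 4-fold, which 24.6% of all 4321 loci with at least 50 records also did toward mEF. The 3 collagen genes exceeded 8-fold, which 16.9% of these loci did, and all 5 genes 2-fold, which 35% did. Col3a1, at 8.68, was the nearest to 8-fold and fell below it under several settings, among them 7.78 without run 3 and 7.08 with median-of-ratios scaling. Loci are stretches where 5′ ends on 1 strand lie at most 500 nt apart. Intervals at 95% are given with the values. They are exact Poisson for levels and exact binomial for ratios, and they cover counting error at most. They take records as independent, but PCR copies of a molecule are counted separately. In records they can therefore be too narrow even for counting error. In pooled cells, a lower number of transcripts per cell and fewer cells with any transcript cannot be told apart.

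Col1a1, the major chain of type I collagen, had 8486 CPM in mEF (8221 to 8757) and 204 CPM in mES (173 to 239). Its ratio of mEF to mES was 41.6 (35.4 to 49.3), the highest of the 5 in records. Records were also split by the instrument name that opens each read name. These parts, called runs, are a technical split and not replicates. Col1a1 was at 8750, 8708 and 4852 CPM in the mEF of runs 1, 2 and 3. The mES values of runs 1 and 2 were 233 and 251 CPM, and mES held 0 Col1a1 records among the 108810 of run 3, where 3 counts correspond to 27.6 CPM. Each mEF value therefore lay above each mES value. With 3 counts in place of 0, the run 3 ratio was 140.4 without second copies of the same alignment (176 with them). These ratios are not lower limits. With second copies kept, the run 3 interval reached up to 33.9 CPM in mES and down to 4092 CPM in mEF. The 144 Col1a1 records of mEF in run 3 lay at 22 positions.

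Col1a2, the other chain of type I collagen, had 2667 CPM in mEF (2519 to 2820) and 112 CPM in mES (89.2 to 139), a ratio of 23.8 (19.1 to 30.1). The mEF values of runs 1, 2 and 3 were 2688, 2940 and 1213 CPM, and the mES values 123, 113 and 64.3 CPM. Here too the runs of the aggregates did not overlap, and the ratio stayed between 18.9 and 26.0 within single runs. Both chains of type I collagen were thus lower in mES in every run.

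Col3a1, the chain of type III collagen, had 636 CPM in mEF (565 to 713) and 73.3 CPM in mES (55.2 to 95.4), a ratio of 8.68 (6.49 to 11.8). In mEF it was at 623, 761 and 202 CPM in runs 1, 2 and 3, on 183, 103 and 6 records. In mES it was at 88.9 and 78.7 CPM in runs 1 and 2 with 0 records in run 3, and all 55 mES records began at 1 position. The mES level of Col3a1 hence rested on a single position.

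Sparc, the collagen-binding glycoprotein, had 2553 CPM in mEF (2409 to 2704) and 353 CPM in mES (312 to 398), a ratio of 7.23 (6.33 to 8.30). Its mEF values were 2640, 2711 and 977 CPM in runs 1, 2 and 3, and its mES values 429, 344 and 64.3 CPM. The lowest mEF run remained above the highest mES run. Within runs the ratio was 6.16, 7.88 and 15.2, the last on 29 mEF and 7 mES records.

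Fn1, fibronectin, had 2368 CPM in mEF (2229 to 2513) and 456 CPM in mES (409 to 506), a ratio of 5.20 (4.60 to 5.89), the lowest of the 5 in records. Its mEF values were 2569, 2305 and 674 CPM in runs 1, 2 and 3, and its mES values 479, 531 and 221 CPM. The lowest mEF value, that of run 3, exceeded the highest mES value, by a smaller fold than for the other genes. For none of the 5 genes is the share of all loci whose runs separate in this way given here. Within runs the ratio was 5.36 (4.60 to 6.28), 4.34 (3.48 to 5.45) and 3.05 (1.60 to 5.77), so that in run 3 Fn1 did not pass 4-fold while its interval included 4. Of its 24 mES records in run 3, 10 were second copies of a read at the same place, and without such copies in the counts and totals the ratio was 4.46 (2.14 to 9.54).

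**Figure D1:**
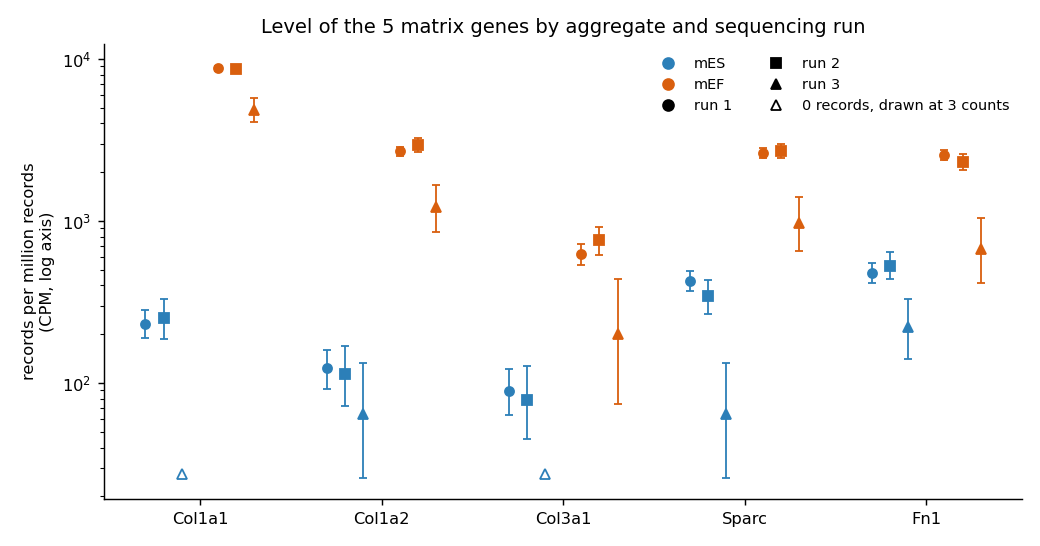
CPM of each gene (log axis) in mES (blue) and mEF (orange), with a symbol for each run, split by instrument name, and exact 95% Poisson intervals as bars. For each gene all mEF points lie above all mES points, from 202 CPM for Col3a1 in run 3 to 8750 CPM for Col1a1 in run 1. The share of all loci separated in this way is not given. Open symbols mark the 2 cases with 0 records, drawn at the level of 3 counts.

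The 5 genes together took 16710 CPM of the mEF aggregate (16338 to 17088) and 1197 CPM of the mES aggregate (1120 to 1278). Their summed ratio was 13.95 (13.02 to 14.97), or 8.28 with Col1a1 left out of the sum. The sum was lower in run 3, with 7918 CPM in mEF and 349 CPM in mES. In run 1 it was 17269 and 1352 CPM, and 17424 and 1318 CPM in run 2. In run 3 a single locus on chromosome 17 took 28.0% of the mEF records and 32.0% of the mES records, against at most 0.556% and 1.55% in the other runs, and its part in the lower levels was not tested. Within run 3 the summed ratio was 22.7 (16.04 to 32.8). All 5 genes exceeded 4-fold in run 1 and in run 2, as 19.8% and 14.4% of the loci with at least 50 records there did. Within run 3, 4 genes did, or 5 without second copies. Of loci with at least 50 records in run 3, 16.4% did, with second copies kept. Among the 5 genes only Col1a1, with 144 mEF records, reached that minimum there, so this share is no like comparison for the others. Col3a1 had 6 mEF records in run 3 and 0 in mES, with 3 counts in place of 0.

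The number of distinct 5′ positions was then counted, because reads at the same position can be copies of 1 molecule. The mEF records of the 5 genes fell on 317 positions, 24.2 records per position, and the mES records on 65 positions, 13.8 per position. Col1a1 had 135 positions in mEF and 16 in mES, Col1a2 had 58 and 10, Fn1 had 57 and 20, and Sparc had 50 and 18. Col3a1 had 17 positions in mEF and 1 in mES. Scaled to all positions of each aggregate, 25252 in mEF and 53947 in mES, the ratio of mEF to mES was 18.0 for Col1a1 (10.7 to 32.4) and 12.4 for Col1a2 (6.28 to 27.2), below those in records. For Sparc it was 5.93 (3.40 to 10.8) and for Fn1 6.09 (3.60 to 10.7), near those in records. For Col3a1 it was 36.3, with an interval from 5.69 to 1518 since it rests on 1 mES position. All 5 genes passed 4-fold in positions, as 8.94% of the 1119 loci with at least 10 positions did toward mEF, though the intervals of Sparc and Fn1 included 4.

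**Figure D2:**
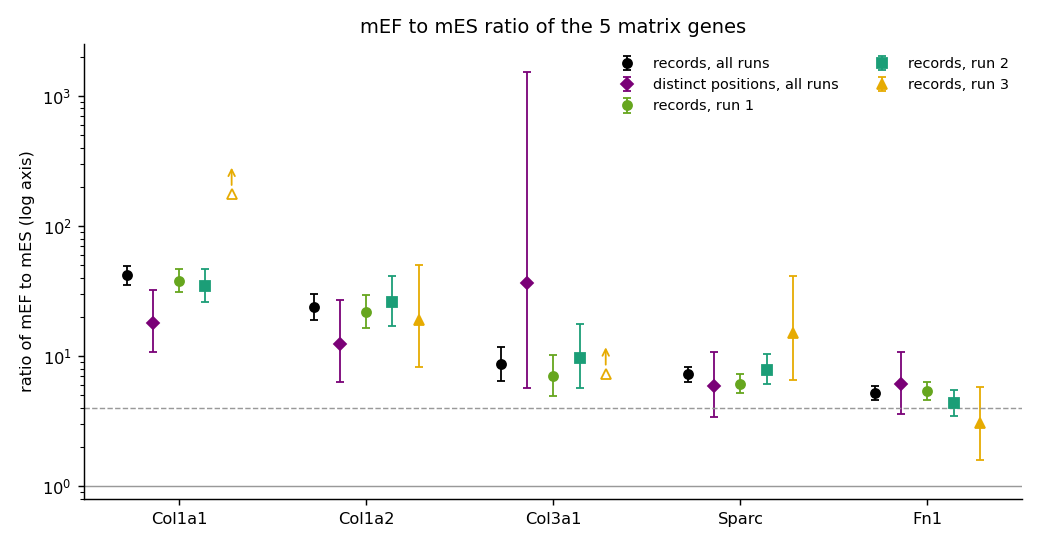
Ratio of mEF to mES (log axis) of each gene in records over all runs, in distinct positions, and in records within each run, with exact 95% binomial intervals, the solid line at 1 and the dashed line at 4. All points lie above 1, Fn1 in run 3 is the single point below 4, at 3.05, and open symbols with arrows take 3 counts for mES where it had 0 records.

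Some of the mES reads began exactly where mEF reads did. Of the 65 mES positions, 23 were also seen in mEF, and they held 395 of the 899 mES records. The share of all mES positions of the aggregate that were also seen in mEF is not given here. Whether transfer between drops had a part in the 23 shared positions was not tested. Fn1 contributed 7 of these positions with 210 of its 342 mES records, and Col1a1 contributed 9 with 61 of its 153. The Col3a1 position of mES was also present in mEF, with 16 records there against 55. The position with the most Col1a1 records in mEF held 407 of them, 10.4%, and had no mES record. Between runs 1 and 2, 238 of the 247 mEF positions of run 2 were also in run 1, and 47 of the 51 in mES. Run 3 shared fewer, 12 of its 50 positions in mEF and 1 of 8 in mES with runs 1 and 2, so most positions of run 3 were not in the other runs.

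**Figure D3:**
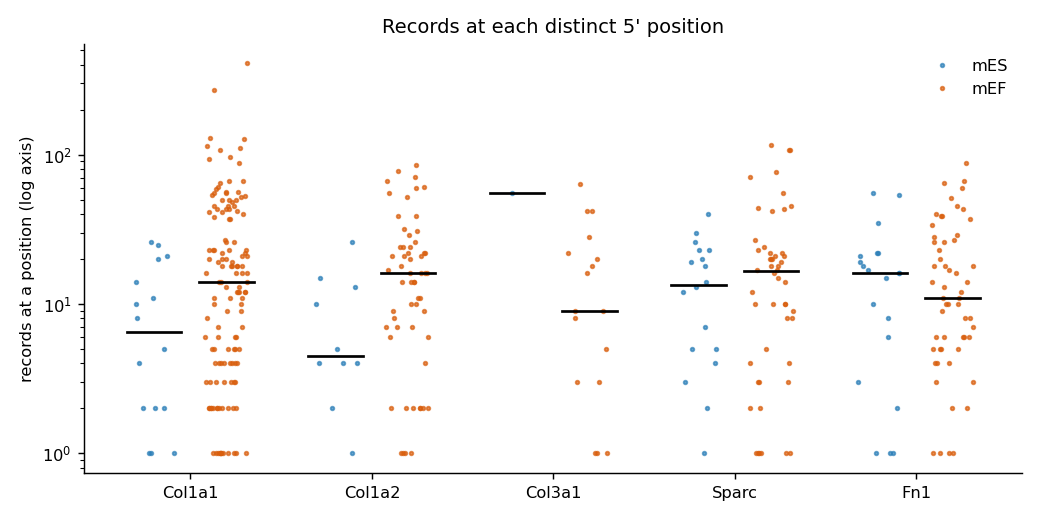
Records at each distinct 5′ position (log axis) of each gene, with 1 point per position in mES (blue) and mEF (orange) and the median as a black line. Col1a1 spans 1 to 407 records per position over 135 mEF positions with a median of 14, whereas all 55 Col3a1 records of mES lie at 1 position.

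Reads of all 5 genes began mainly in the 3′ untranslated region (UTR). Taking lengths in mm9 and GRCm38 as equal, the gapped reads place each transcript's end between 41 and 130 nt inside the 3′ border of its window. That place is then known to within 3.5 nt for Col1a2 and 21.5 nt or less for the others. Distances below are counted from the middle of that range. Whether lengths between the gaps and the transcript ends are equal was not checked, and the parts of the gene given below rest on it too. For Col3a1 the placement rests on 1 gapped record. In mEF, 94.1% of the records of the 5 genes began in the 3′ UTR, 4.98% in coding exons and 0.939% in introns. In mES, these shares were 81.8%, 8.45% and 9.79%, and no record of either began in a 5′ UTR. The intronic records lay at 6 of the 317 mEF positions and 7 of the 65 mES positions. Fn1 held most of them, with 75 of its 342 mES records (21.9%) at 6 positions and 68 of its 1087 mEF records (6.26%) at 4 positions, 60 of the latter at a single site. Col1a1 and Col1a2 had no intronic record in either aggregate. With so few positions, these shares turn on single sites.

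**Figure D4:**
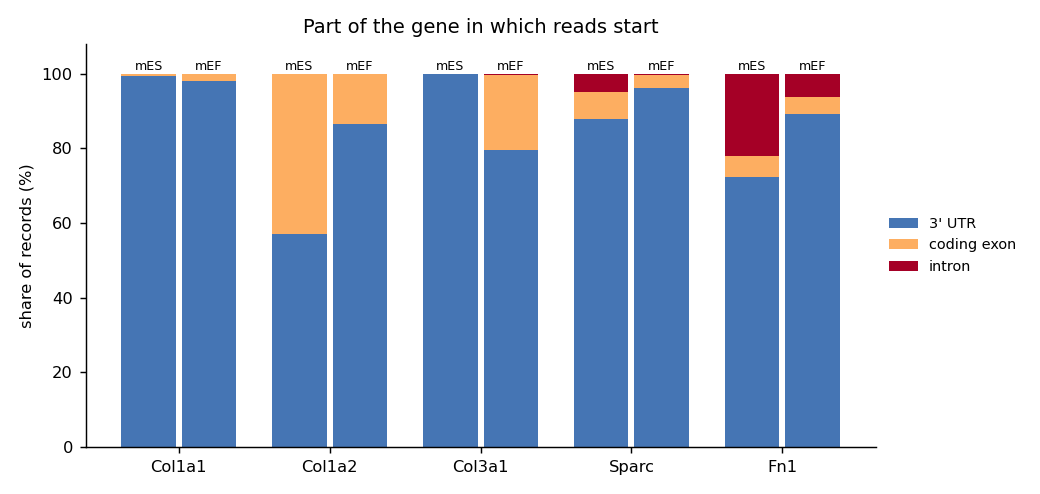
Share of records (%) of each gene, in mES and mEF, whose 5′ end lies in the 3′ UTR, a coding exon or an intron of the transcript. The 3′ UTR takes 98.2% of the Col1a1 records in mEF, and the largest intronic share is that of Fn1 in mES, at 21.9%.

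The reads of each gene were next divided by the poly(A) signal that follows them along the transcript, coding exons included, and these sequences are shown first. Each stretch of 30 nt comes from the transcript, with every AATAAA, the usual poly(A) signal, in capitals. Only AATAAA was searched, on the sense strand in the last 2000 nt, so any other form of the signal is not counted. Signals within 50 nt of each other, some of which overlap, were treated as 1. Distances run from the first base of the signal to the transcript's end.
Col1a1, 25 nt from the end: tttgattgctggAATAAAgcatgtggaaat
Col1a1, 1174 nt from the end: aaaaaaaaagAATAAATAAAtaacttttta
Col1a2, 59 nt from the end: taAATAAAttgtgaaaAATAAAATAAAgca
Col1a2, 581 nt from the end: caAATAAAaattgaaaAATAAAATAAAaag
Col3a1, 144 nt from the end: ttattctataaaAATAAAcaacgaaaaaca
Col3a1, 716 nt from the end: atggtgctatAATAAATAAAcgtcaacact
Sparc, 27 nt from the end: caagtctttcaaAATAAAaagtaacaactt
Fn1, 19 nt from the end: gacaagtgttttAATAAAaagatttacatt
A further Col3a1 signal lies 22 nt from its end. Of 58797 protein-coding transcripts in the annotation, 40.5% hold AATAAA in the last 50 nt, and of 27150 that are at least 2000 nt long, 42.5% hold 2 or more in the last 2000 nt.

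Col1a1 reads lay in 2 zones set apart by a gap. In mEF, 59.97% of them began between the signals at 25 and 1174 nt, at 61 positions with a median distance of 268 nt from the end. Another 40.0% began ahead of the signal at 1174 nt, at 73 positions with a median distance of 1290 nt. Between these zones lay a stretch without reads, since the farthest read of the first zone began 541 nt and the nearest of the second 1189 nt from the end. In mES the shares were 54.9% and 45.1%, on 7 and 9 positions, so both zones were present in both cell types.

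Col1a2 reads lay ahead of both of its signals as well. The nearest mEF reads on either side of the inner signal, at 581 nt, began at 555 and 595 nt, each at 1 position. No mEF read began between 348 and 555 nt, while mES reads began at 445 nt. In mEF, 44.6% began ahead of the signal at 59 nt, with a median distance of 172 nt, and 55.4% ahead of the one at 581 nt, with a median distance of 785 nt. In mES the shares were 27.4% and 72.6%, on 4 and 6 positions. Of the 84 mES records, 36 lay in coding exons, and 26 of these began at 1 position and crossed the junction shown above.

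Col3a1 reads began mostly ahead of its inner signal. In mEF, 79.8% lay ahead of the signal at 716 nt, at 12 positions, and 19.5% ahead of the one at 144 nt, at 3 positions, with none ahead of the signal at 22 nt. All 55 mES records lay ahead of the signal at 716 nt, at 789 nt from the end.

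Sparc and Fn1, each with 1 AATAAA in the stretch searched, had most reads near the end. For Sparc, 82.1% of the mEF records and 78.5% of the mES records began within 500 nt of it, and for Fn1 81.4% and 72.2%. Over all records, the median distance along the genome was 161 nt in mEF and 188 nt in mES for Sparc, and 115 nt and 129 nt for Fn1.

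Besides the poly(A) signals, runs of A inside the transcript can pair with the poly(T) primer. Runs of at least 10 A, which 13.5% of the 27150 transcripts hold in the last 2000 nt, are shown in capitals for Col1a1 and Sparc. The other genes are left out of this comparison.
Col1a1, 13 A, 1188 nt from the end: aaaaaagAAAAAAAAAAAAAgaataaataa
Sparc, 16 A, 937 nt from the end: cggtgctAAAAAAAAAAAAAAAAcaaagta
In Col1a1 the run lies 14 nt ahead of the inner signal, so priming at the run and at a poly(A) tail behind the signal cannot be told apart. In the 300 nt ahead of it began 39.3% of the mEF records, at 64 positions, and 44.4% of the mES records, at 8 positions. In Sparc, 12.2% of the mEF records and 16.6% of the mES records began in the 300 nt ahead of the run of 16 A, at 8 and 3 positions, and the next signal lies 910 nt behind it.

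**Figure D5:**
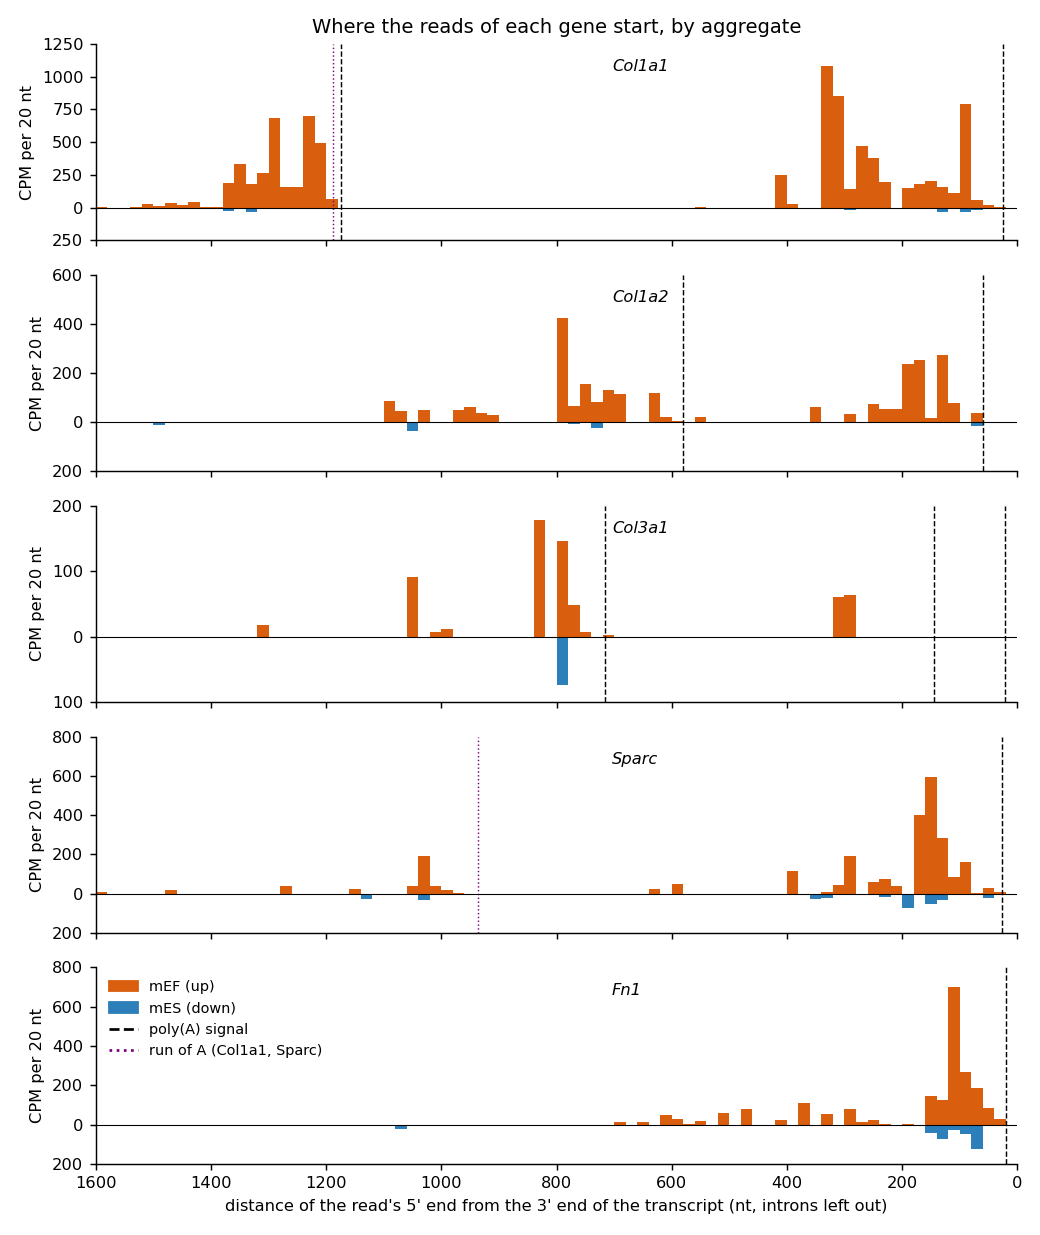
Records per 20 nt (CPM, mEF upward and mES downward) by the distance of the read's 5′ end from the transcript's 3′ end, for each gene, with poly(A) signals as dashed lines and the runs of A in Col1a1 and Sparc as dotted lines. Col1a1 reads form a zone on the 5′ side of each of its 2 signals, and no mEF read of Col1a1 begins between 541 and 1189 nt from the end.

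Loci outside these windows were ranked by how closely their log2(CPM + 1) followed the summed profile of the 5 genes over the 3 runs of both aggregates, 6 values that share libraries and depth. Over 4313 loci, Pearson's r had a median of 0.25 and exceeded 0.9 at 146. The 3 loci highest in r were chr16:17153182-17154346, minus strand (r = 0.998), chrX:103217103-103217248, plus strand (r = 0.991), and chr3:90409683-90409911, plus strand (r = 0.990), all in mm9. The first had 270 CPM in mEF and 141 CPM in mES, the second 368 and 75.9 CPM, and the third 658 and 25.3 CPM. All 3 were higher in mEF, which their choice by r with a sum itself higher in mEF favours. By how much is not measured by r. Genes at these loci, other matrix genes and stem cell markers were not analysed here, because the annotation used is on another build.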

How the data were processed

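Per the labels and the paper's methods, the authors aligned the 3′-end reads with TopHat (version not given in the sources used here) to mm9, pooled the reads of the cells of each type and deposited each pool as alignment records with position, strand, read name and a mapping score of 4 values. The deposited mapping score is set by the aligner. The barcode list was not used, as read names carry no barcode. The mES aggregate holds 750739 records and the mEF aggregate 459005, so that 3 counts, used in place of 0, equal 4.00 and 6.54 CPM.

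From the records, the 5′ end was taken on the strand of the read and counted from 1. CPM are records per 1000000 records of the aggregate or run. With 1 pool per cell type no p-value was computed. Runs are a technical split by the instrument in the read names, numbered by their records, and are not replicates. The usual span of a record was 35 nt in runs 1 and 2 and 45 nt in run 3. Alternatives were distinct positions, the highest score, second copies dropped, windows without padding, padded windows reduced to their last 2 kb, either strand, other scalings, single runs and other minimums and folds. Those last 2 kb take in 1 kb of padding, which held no record, and only the last 1 kb of the window itself. Intron lengths and transcripts were taken from GENCODE M21 (GRCm38), using the transcript of each gene that comes first in its naming. Part of the search for runs of A is not reported here. Genes named are all 5 members and the 3 loci most like their sum. The members and lists were chosen with earlier results of these data known. Simulated data with known ratios were used to check how loci are built and ratios computed. Python 3.11.15, numpy 2.4.6, pandas 2.3.3, scipy 1.17.1 and matplotlib 3.10.9 were used.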

Additional observations from a re-analysis of the deposited data

How the results depend on the processing

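All 5 genes stayed higher in mEF under each of 17 settings. Col1a1, Col1a2, Col3a1 and Sparc stayed over 4-fold in all of them, with lowest ratios of 18.0, 12.4, 6.24 and 5.90, and Fn1 in 15, falling to 3.05 in run 3 only and to 2.88 there with totals without the chromosome 17 locus, but not in run 3 without second copies (4.46). With an 8-fold limit 3 genes passed (16.9% of all loci), of which Col3a1 did so in 10 of the 17 settings, and with 2-fold all 5 (35% of all loci). Among the 17 settings, no padding and either strand could not change a value, since no record lay in the padding or on the opposite strand. The highest score changed only the totals, since all records of the 5 genes had it. The summed ratio of 13.95 was 10.4 in distinct positions and 11.4 with median-of-ratios scaling, which moved all log2 ratios of mEF to mES by -0.29. It was 16.03 without run 1, 12.9 without run 3, 12.8 in run 1 only, 22.7 in run 3 only, 21.4 in run 3 with totals without the chromosome 17 locus and 26.1 in run 3 without second copies. It was 22.6 without positions common to both aggregates, a setting not counted among the 17, since it removes 395 of 899 mES records and 696 of 7670 mEF records and so raises the ratio by construction. Leaving a gene out of the sum gave 8.28 without Col1a1, 12.9 without Col1a2, 14.3 without Col3a1, 16.8 without Sparc and 19.3 without Fn1. The summed ratio thus fell where the gene left out had a ratio above 13.95 and rose where that ratio was lower. Otherwise the cause of a change was not tested. The share of loci over 4-fold toward mEF, 24.6%, was 20.8% in bins of 25 kb per strand, 9.85% in distinct positions and 8.94% in distinct positions at a minimum of 10. The settings with totals without the chromosome 17 locus, with common positions left out, with second copies dropped within run 3 and with a minimum of 10 positions were chosen after seeing the data. No paired analysis was possible because the result comes from 1 pool per cell type. The few mES positions limit all ratios, above all that of Col3a1.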
